A study of Rattus norvegicus with 8 samples.

Results

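Olfactory receptor genes were examined in rat cerebral cortex through the 34 probes, of 23609 in the deposited table, whose gene symbol is Olr followed by a digit. Each of the 34 symbols had 1 probe, and every one of these probes had a value on all 8 arrays. The animals were 8 rats of the Sprague Dawley strain. In 4 of them the middle cerebral artery had been occluded transiently (tMCAO, a stroke model in which a brain artery is blocked and reopened), and the other 4 were sham-operated controls; tissue was taken at 24 h. Each animal gave 1 array of 2 colours, in which Cy5 read the animal's own RNA, Cy3 read RNA pooled from sham cortex, and the dyes were not swapped. The cortex came from a 4 mm thick section of the operated side of the brain, and 100 ng of RNA was amplified in 2 rounds before labelling. The sources used here give no age and no sex for either group, so the groups differ in the labels by the operation alone.

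Olfactory receptors are odorant-binding receptors of the membrane, coupled to G proteins, and form a very large gene family in the rat. In the nose, an olfactory sensory neuron expresses a single receptor gene, and the bound odorant raises cyclic AMP through a G protein, adenylyl cyclase 3 and a channel opened by cyclic nucleotides. Outside the nose a minority of these receptors has been found at low levels, for example in testis, kidney and blood vessels.

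The label held for 33 of the 34 probes. The probe named Olr1 carries an accession that RefSeq assigns to the oxidized low-density lipoprotein receptor, a scavenger receptor of endothelial cells and macrophages that is no odorant receptor. RefSeq gives 29 of the other symbols a new name; Olr59, Olr1523, Olr1271 and Olr1500 keep theirs, as does Olr1. The new name of Olr1867, Or7d11b-ps1, is that of a pseudogene. Counts below cover all 34 probes, and the values without Olr1 are given where they differ.

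Probe sequences were not in the files analysed here. For the 3 members with a difference between tMCAO and sham, RefSeq's GRCr8 table gives the 250 bases before the annotated gene start, shown here on the gene's own strand because these are the members that the comparison picked out. Capitals mark matches to 2 kinds of motif searched on both strands: CCCNNGGG, the core recognised by early B-cell factors (the Olf/EBF family), and TAATTA or TAATGA, cores recognised by homeodomain proteins such as Lhx2. TAATTA and CCCNNGGG read the same on both strands, and TAATTA and TAATGA can overlap each other.
Olr59 (chr1:166610904-166611153, minus strand): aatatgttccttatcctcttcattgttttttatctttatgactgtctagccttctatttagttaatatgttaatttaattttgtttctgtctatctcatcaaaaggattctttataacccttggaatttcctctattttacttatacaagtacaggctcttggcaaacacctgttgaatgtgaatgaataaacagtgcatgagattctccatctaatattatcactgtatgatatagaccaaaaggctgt
Olr287, now Or6f2 (chr1:204406318-204406567, plus strand): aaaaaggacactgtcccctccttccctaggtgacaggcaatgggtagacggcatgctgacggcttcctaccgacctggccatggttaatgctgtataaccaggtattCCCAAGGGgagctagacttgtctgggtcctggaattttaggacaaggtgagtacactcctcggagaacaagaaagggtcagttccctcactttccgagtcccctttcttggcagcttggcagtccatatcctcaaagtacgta
Olr337, now Or5a3 (chr1:218831232-218831481, plus strand): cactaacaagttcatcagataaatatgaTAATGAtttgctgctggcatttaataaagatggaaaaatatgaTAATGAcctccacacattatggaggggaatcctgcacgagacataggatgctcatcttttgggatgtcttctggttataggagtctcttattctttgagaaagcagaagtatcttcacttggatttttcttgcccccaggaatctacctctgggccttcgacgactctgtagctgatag
The Olr59 window held no match to either motif, the Olr287 window held 1 match to CCCNNGGG, and the Olr337 window held 2 matches to TAATGA. Such windows were available for 24 of the 33 receptors. CCCNNGGG occurred in 1 of the 24 (4.17%), in 1.01% of the 1085 olfactory receptor genes of the table and in 10.8% of all 33465 genes. TAATTA or TAATGA occurred in 6 of the 24 (25%), in 37.6% of the olfactory receptor genes and in 13.5% of all genes. A match describes letters in the window and is no evidence of binding. Of the 33 gene models, 28 spanned at most 1100 bases, close to the coding sequence alone, so that their annotated start may lie near the start codon and not at a promoter; the model of Olr59 spanned 34663 bases.

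Most of the family gave a weak signal in the cortex. The mean Cy5 intensity over the 8 arrays, on the linear scale of the deposited table, had a median of 0.0619 over the 34 members, against 0.235 over all 23376 probes with complete values. Of the members, 26 (76.5%) lay below 0.1 and 14 (41.2%) below 0.05, against 28.2% and 12% of all probes. The 33 olfactory receptors alone had a median of 0.0625. The intensity of a probe depends on its sequence as well as on the amount of RNA, so these values rank signals and not transcript amounts.

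Only 3 members reached the median of all probes. Olr1699, now Or10al4b, had the brightest probe, with a mean of 0.51 at the 66.4th percentile of all probes. Olr59, the rat counterpart of mouse Olfr78 and human OR51E2, followed with 0.428 at percentile 62.9. Olr1523 came next with 0.342 at percentile 58.5. Below these came Olr1482 (now Or1e16) with a mean of 0.19, Olr1307 (Or10d1) with 0.158, Olr1398 (Or2y13) with 0.124, Olr826 (Or6d13) with 0.112 and Olr829 (Or6d12c) with 0.104. Then followed Olr287 with 0.095 and Olr1700 (Or10al27) with 0.09, which completed the 10 brightest. The 3 dimmest were Olr1500 with 0.0157, Olr1496 (Or1e31) with 0.0113 and Olr1271 with 0.00921. None of the receptors reached a mean of 1.

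**Figure D1:**
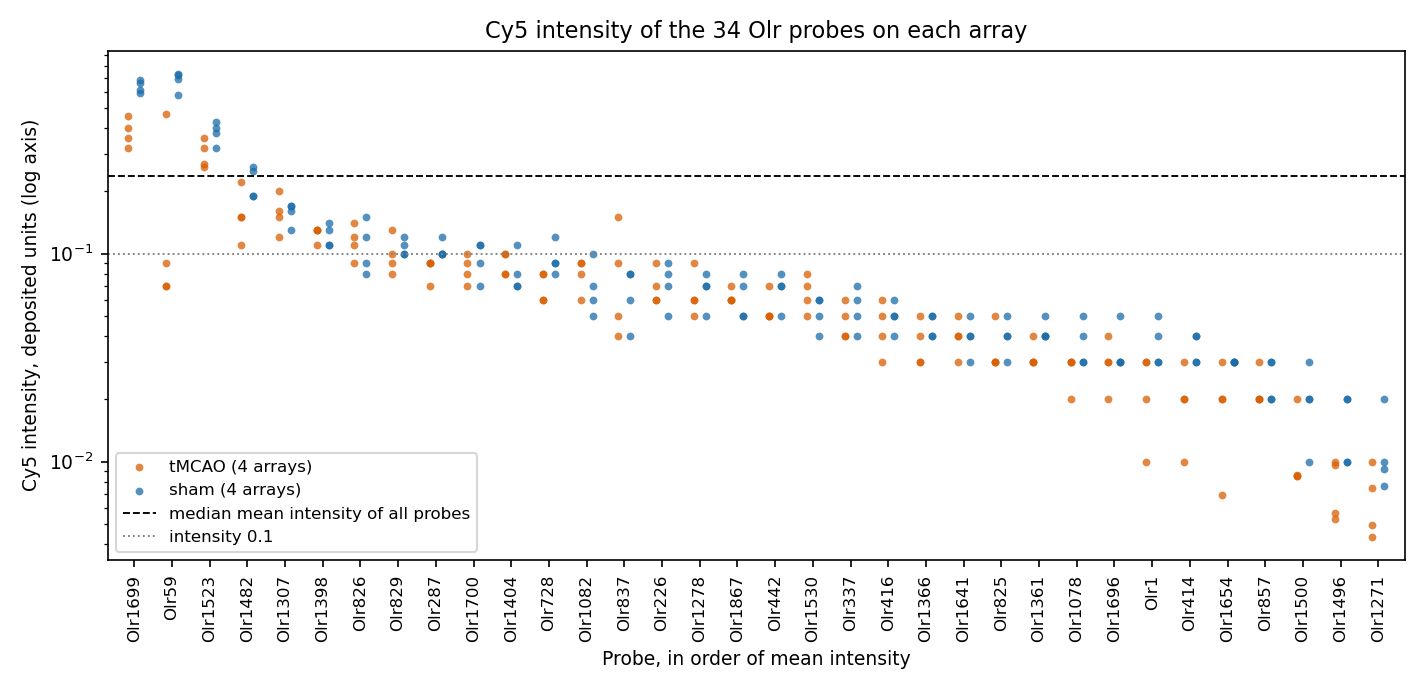
Cy5 intensity in deposited units (log axis) of the 34 Olr probes, in order of mean intensity, with 1 point per array for the 4 tMCAO and the 4 sham arrays. The dashed line marks 0.235, the median over all probes, which only Olr1699, Olr59 and Olr1523 exceeded on average.

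Related members had probes of different brightness. Olr1699 shares the Or10al subfamily with Olr1700 and with Olr1696 (Or10al6), whose means were 0.09 and 0.0325. The RefSeq names of Olr59 and Olr1523 give no subfamily. In the Or6d subfamily Olr826, Olr829 and Olr825 (Or6d13b) had means of 0.112, 0.104 and 0.0375. In the Or1e subfamily Olr1482 had 0.19 and Olr1496 0.0113. Members of a subfamily are similar in sequence, and cross-hybridisation between them was not tested. The rat I7 receptor Olr226 (Or6a2), known for its response to octanal, had 0.07 ± 0.0141 in tMCAO and 0.0725 ± 0.0171 in sham cortex (SD, n = 4 each).

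The source of the probe also went with the median level, but not with the top of the ranking. The 15 receptor probes designed on GenBank entries had a median mean intensity of 0.0825, while the 18 designed on RefSeq transcripts had a median of 0.0425. Of the RefSeq probes 11.1% reached the median of all probes, namely Olr1699 and Olr59, and of the GenBank probes 6.67%, namely Olr1523. The part of probe design in these levels was not tested. Of the 8 genes nearest to Olr59 in the RefSeq order all were olfactory receptor genes or pseudogenes, and 0 of them had a probe. The 8 nearest genes of Olr1699 were also olfactory receptor genes; the 2 with a probe were Olr1696 and Olr1700. Of the 8 nearest genes of Olr1523 2 were olfactory receptor genes, without a probe, and 3 others had probes. Among those, Dynll2 and Cuedc1 each had 1 of 2 probes called lower, and none of the 5 probes of Srsf1 was called. Of all probes, 15.1% were called lower.

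The rounding of the table limited what the weak members could show. Intensities of at least 0.01 were deposited to 2 decimals. Of the 272 Cy5 values of the members, 203 (74.6%) lay below 0.1, against 28% of all values. A single step of 0.01 is worth 0.585 log2 units at an intensity of 0.02, 0.263 at 0.05 and 0.0286 at 0.5. As a result 119 of the 272 log2 ratios of Cy5 over Cy3 (43.8%) were exactly 0, against 18.2% of all ratios. Olr1641 (Or10g1b) had a ratio of exactly 0 on all 8 arrays.

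The spread between arrays followed the level, more so in sham cortex than in tMCAO. The SD of the log2 ratio between the arrays of a group was pooled over the 2 groups. Its median was 0.325 for the members below 0.05, 0.147 for those between 0.05 and 0.1 and 0.119 for the 8 of at least 0.1. In tMCAO alone the medians were 0.178, 0.134 and 0.138, and in sham cortex alone 0.336, 0.141 and 0.0991. The median ratio of the members was 0 on each of the 8 arrays. For the difference between the groups, the range that rounding alone allows was 0.957 log2 units wide at the median. It included 0 for 30 members and excluded 0 for 4, namely Olr59, Olr287, Olr1699 and Olr1482.

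In the comparison of tMCAO with sham cortex, which asks how the operation changed expression, 3 members were lower and none higher at an adjusted p under 0.05 in limma: Olr59, Olr287 and Olr337. Over all 23376 probes 29.6% were called, 14.5% higher and 15.1% lower. Of all probes with a mean below 0.1, 12.9% were called, with 6.07% higher and 6.86% lower. The 26 members in that range gave 2 lower and none higher. At an unadjusted p under 0.05, 4 members were lower and none higher, the fourth being Olr1699; of all probes, 42.9% passed that threshold, 22.9% of all being lower. The median log2 difference of the members, tMCAO minus sham, was -0.12, against -0.05 over all probes, and without Olr1 it was -0.10. Of the differences 20 were below 0, 13 above and 1 at 0. The 31 members that were not called lay between -0.35 (Olr1696) and 0.24 (Olr1496).

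Some calls of the ratio came and went with single animals. For Olr1530, Olr728 and Olr1496 the pool channel moved as well, while the pool signal of Olr337 was not called (adjusted p 0.328 in limma). Without tMCAO replicate 4, 44.5% of all probes were called, and the ratio was called lower for Olr59, Olr287, Olr337 and Olr1530 and higher for Olr728. The Cy5 intensity of Olr1530 averaged 0.065 in tMCAO and 0.0525 in sham cortex, and that of Olr728 averaged 0.07 in tMCAO and 0.095 in sham cortex, each opposite to its ratio. Without sham replicate 2, 20.2% of all probes were called, and the ratio of Olr1496 was called higher at 0.74 (adjusted p 0.0223). The Cy5 intensity of Olr1496 averaged 0.00765 in tMCAO and 0.015 in sham cortex, opposite to the ratio, and its rounding range over all arrays was -1.03 to 1.81. The pool signal differed between tMCAO and sham arrays by 0.48 for Olr1530, -0.67 for Olr728 and -1.19 for Olr1496, on the log2 scale.

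**Figure D2:**
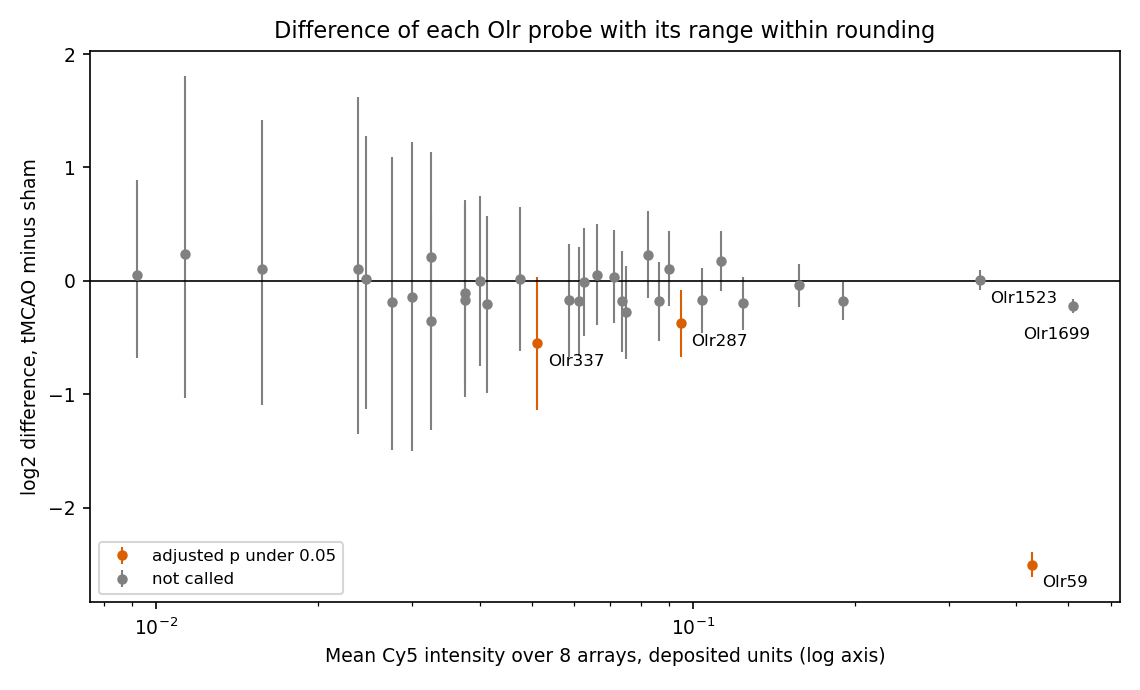
log2 difference of Cy5 over Cy3 (tMCAO minus sham, 4 arrays each) of each Olr probe against its mean Cy5 intensity (deposited units, log axis); bars show the range that the rounding of the deposited intensities allows. Olr59 sits at -2.50 with a narrow range, and most bars of the dim probes cross 0.

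Olr59 had the largest difference of the family. The receptor responds to short-chain fatty acids in mouse and human, and in mouse it is known from vascular smooth muscle, kidney and the carotid body. Its Cy5 intensity was 0.07, 0.07, 0.09 and 0.47 in the 4 tMCAO animals, against 0.72, 0.69, 0.58 and 0.73 in the 4 sham animals. Of the tMCAO animals 3 were far below every sham animal and replicate 4 lay below the lowest of them, so the groups did not overlap. The Cy3 channel with the sham pool read 0.59 or 0.60 on all 8 arrays. The log2 ratio was -3.10, -3.10, -2.71 and -0.35 in tMCAO, and 0.29, 0.23, -0.05 and 0.28 in sham.

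The log2 difference of Olr59 was -2.50 ± 0.56 (SE), a 5.67-fold lower ratio in tMCAO cortex, with an adjusted p of 0.0132 in limma. Rounding allowed a range of -2.62 to -2.40. Without tMCAO replicate 4 the difference was -3.16 with an adjusted p of 1.46e-05. Of all probes, 23 (0.0984%) were called lower by at least 4-fold, Olr59 among them. In the authors' deposited table, the p-value between the channels was 1.24e-19, 2.89e-29, 3.54e-24 and 0.04 on the tMCAO arrays, and 0.05, 0.21, 0.75 and 0.06 on the sham arrays. In tissue RNA, fewer cells that carry a transcript and less of it per cell cannot be told apart.

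The tMCAO animal whose Olr59 ratio was nearest to sham, replicate 4, also had the smallest spread of ratios in its group. Over all probes the SD of the log2 ratio was 0.741, 0.691, 0.615 and 0.368 on the 4 tMCAO arrays, and 0.231 to 0.259 on the sham arrays. Of the 3 neuron markers measured, the synaptic vesicle gene Syp had log2 ratios of -2.11, -1.34, -1.37 and -0.42 in tMCAO, and -0.05 to 0.11 in sham. Its difference was -1.34 ± 0.30 (SE, adjusted p 0.0129). The vesicular glutamate transporter Slc17a7 was lower by -0.54 ± 0.13 (SE, adjusted p 0.0151), a call that ended under quantile normalization at -0.34 (adjusted p 0.0617). Gad1, the GABA-synthesising enzyme, was not called at -0.16 ± 0.10 (SE, adjusted p 0.25). The summed intensity of the 3 ranged over 4.64 to 6.21 in tMCAO and 5.97 to 6.96 in sham cortex, and none of them was at 0. Their part in the difference of Olr59 was not tested.

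Markers of the vessel wall were looked up after Olr59 had been seen, because of the mouse receptor's place in smooth muscle. Of 9 probes for smooth muscle and pericytes, 3 were higher (Tagln, Pdgfrb and Cspg4) and 2 lower, both of Rgs5, a regulator of G protein signalling in pericytes. The brighter Rgs5 probe had log2 ratios of -1.48, -1.24, -1.29 and -0.59 in tMCAO, and -0.10 to 0.25 in sham. Tagln, an actin-binding protein of smooth muscle, was higher by 2.30 ± 0.27 (SE, adjusted p 0.0025). The summed intensity of the 9 probes was 8.80 to 15.4 in tMCAO and 5.88 to 6.73 in sham cortex, with none at 0. Tagln carried that difference: without it the other 8 probes summed to 3.55 to 3.71 in tMCAO and 4.14 to 4.51 in sham cortex. The brightest of those 8, Des, averaged 1.555 in tMCAO and 2.31 in sham cortex. Its ratio was not called at -0.18 (adjusted p 0.102 in limma), so the sum does not show a joint fall of the 8. Whether these cells carried Olr59 was not tested.

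**Figure D3:**
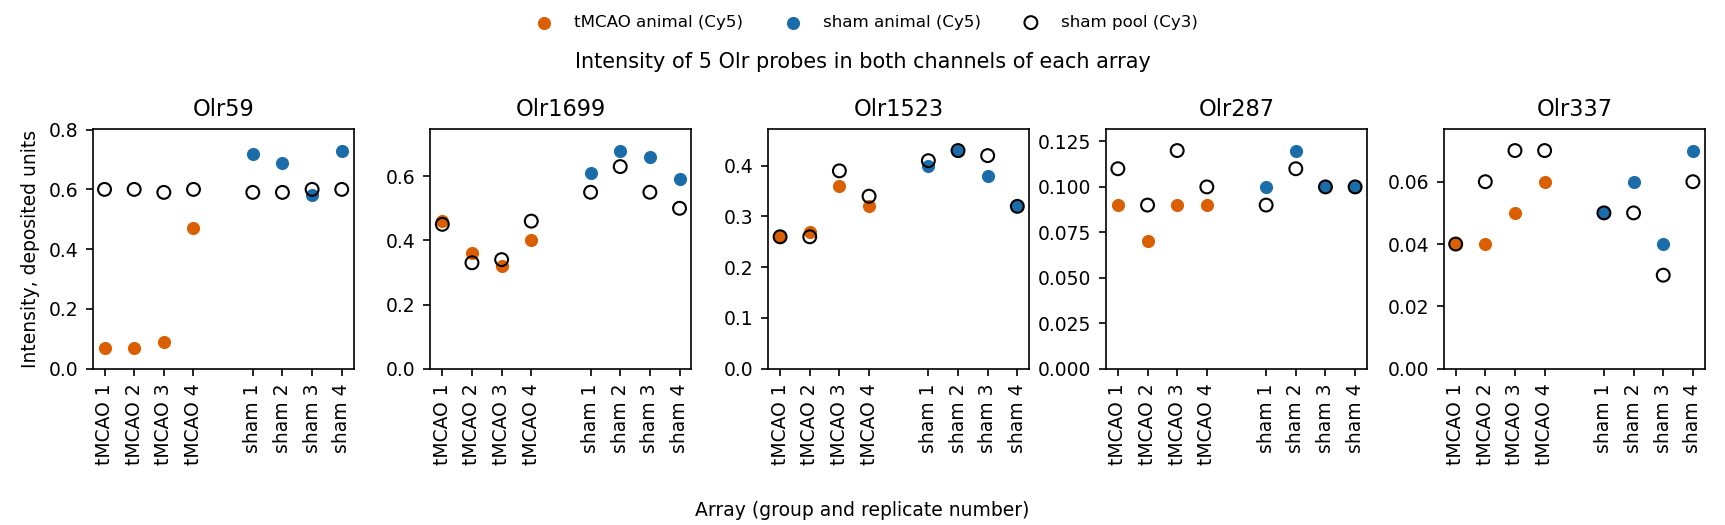
Intensity in deposited units of 5 Olr probes on each array, with filled points for the animal's RNA in Cy5 (tMCAO left, sham right) and open circles for the sham pool in Cy3. For Olr59 the open circles stay at 0.59 to 0.60 while 3 of the 4 tMCAO animals sit at 0.07 to 0.09; for Olr1699 the open circles are lower on the tMCAO arrays too.

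Olr1699, the brightest member, was called lower in the animals' channel alone, while its ratio did not pass the test. Its Cy5 intensity was 0.46, 0.36, 0.32 and 0.40 in tMCAO, against 0.61, 0.68, 0.66 and 0.59 in sham cortex, without overlap. The pool in Cy3 on the same arrays read 0.45, 0.33, 0.34 and 0.46 on the tMCAO arrays and 0.55, 0.63, 0.55 and 0.50 on the sham arrays. The pool was 1 RNA for all arrays, yet its signal was lower on the tMCAO arrays as well. Without normalization between arrays, the pool signal differed by -0.51 ± 0.13 log2 units (SE, adjusted p 0.0202 in limma). The ratio differed by -0.22 ± 0.09 (SE), which did not pass at an adjusted p of 0.106, while Cy5 taken alone, quantile-normalized between arrays, gave -0.83 ± 0.13 (SE, adjusted p 0.00265). The ratio was called under quantile normalization, at -0.38 (adjusted p 0.0389), and with array weights, at -0.23 (adjusted p 0.0345).

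Differences of the pool between the arrays were common. In the Cy3 channel 36.7% of all probes were called between tMCAO and sham arrays, and 6 members were: Olr1530 (Or5ac23) higher, and Olr1699, Olr728, Olr1078, Olr1654 and Olr1496 lower. Cy5 taken alone called 31.2% of all probes and 3 members, all lower: Olr59, Olr1699 and Olr414 (Or1n1). Olr59 was called both by the ratio and by Cy5 alone, and its pool signal was not called (difference 0.01 ± 0.03, SE, adjusted p 0.903). The 4 sham animals were also set against the pool, with the error taken over both groups. In limma this called 0.0556% of all probes and none of the members at an adjusted p under 0.05. At an unadjusted p under 0.05, Olr1699 and Olr1 were higher than the pool and Olr826 was lower. The share of all probes at that threshold was not computed, so these 3 are not read as a result.

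Olr1523 had 0.26, 0.27, 0.36 and 0.32 in tMCAO, against 0.40, 0.43, 0.38 and 0.32 in sham cortex, with 1 animal of each group at 0.32. Its ratio differed by 0.01 ± 0.08 (SE, adjusted p 0.952). Its pool signal moved like its Cy5 signal from array to array, as the plot of both channels shows. Rounding allowed a range of -0.08 to 0.09.

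Olr287 and Olr337 were called at levels where 1 rounding step matters. Olr287 (Or6f2) had 0.09, 0.07, 0.09 and 0.09 in tMCAO, against 0.10, 0.12, 0.10 and 0.10 in sham cortex. The groups did not overlap, and the log2 difference was -0.37 ± 0.09 (SE, adjusted p 0.0161) with a rounding range of -0.67 to -0.08. Olr337 (Or5a3) had 0.04, 0.04, 0.05 and 0.06 in tMCAO, against 0.05, 0.06, 0.04 and 0.07 in sham cortex, and here the groups overlapped. Its log2 difference was -0.55 ± 0.15 (SE, adjusted p 0.0254), with a rounding range of -1.14 to 0.03 that includes 0. Cy5 taken alone did not call Olr287, at -0.27 (adjusted p 0.101), or Olr337, at -0.07 (adjusted p 0.801). The pool signal of Olr337 differed between tMCAO and sham arrays by 0.35 ± 0.26 log2 units (SE, adjusted p 0.328 in limma), which was not called. Olr337 also lost its call without tMCAO replicate 2 or 3 and without sham replicate 2, 3 or 4, with differences of -0.55 to -0.46 and adjusted p of 0.0614 to 0.0734.

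Groups that do not overlap were found for 2 members by the ratio, Olr59 and Olr287, against 28.8% of all probes. By Cy5 intensity there were 3, Olr59, Olr1699 and Olr287, against 28.2% of all probes. In the authors' deposited table, a p-value under 0.01 between the channels occurred for 1, 1, 1 and 0 members on the tMCAO arrays and for 0, 1, 0 and 0 on the sham arrays. Of all probes, 35.5%, 33.8%, 29.1% and 11.8% were under 0.01 on the tMCAO arrays and 1.89% to 2.75% on the sham arrays. The members on the tMCAO arrays were Olr59 each time, and the 1 on a sham array was Olr1, the lipoprotein receptor.

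Of the next brightest members none was called. Olr1482 had 0.15, 0.11, 0.22 and 0.15 in tMCAO, against 0.19, 0.26, 0.19 and 0.25 in sham cortex, with a log2 difference of -0.18 ± 0.11 (SE, adjusted p 0.244). Olr1307 had 0.158 ± 0.0330 in tMCAO and 0.158 ± 0.0189 in sham cortex (SD, n = 4 each). Olr1398, Olr826, Olr829 and Olr1700 differed by -0.20, 0.17, -0.17 and 0.11 log2 units, with adjusted p of 0.178, 0.172, 0.183 and 0.451.

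At the dim end, Olr1271 had 0.00436, 0.00496, 0.00750 and 0.01 in tMCAO, against 0.01, 0.00762, 0.02 and 0.00924 in sham cortex. Its log2 difference was 0.05 with a rounding range of -0.68 to 0.89. Olr1500 and Olr1496 differed by 0.11 and 0.24 log2 units, with adjusted p of 0.554 and 0.711. The rounding ranges of all 3 included 0. The dimmest values of Olr1271, Olr1500 and Olr1496 fell below 0.01, as did 12 of the members' 272 values in all.

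Probes of other chemoreceptor families were dimmer still. The 19 vomeronasal receptor probes, for receptors of the accessory olfactory organ, had a median mean intensity of 0.0238, the 12 taste receptor probes 0.03, and the single trace amine receptor probe 0.02. The 32 probes together had a median of 0.0244 with 84.4% below 0.05, against 41.2% of the Olr probes. Of these 32 probes only that of Tas1r1, a subunit of the umami receptor, reached the median of all probes, with a mean of 0.275. Of the 32, 1 was lower in tMCAO and none higher. It was Vom2r27, with a log2 difference of -0.53 ± 0.17 (SE, adjusted p 0.0491) and a rounding range of -1.29 to 0.21.

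**Figure D4:**
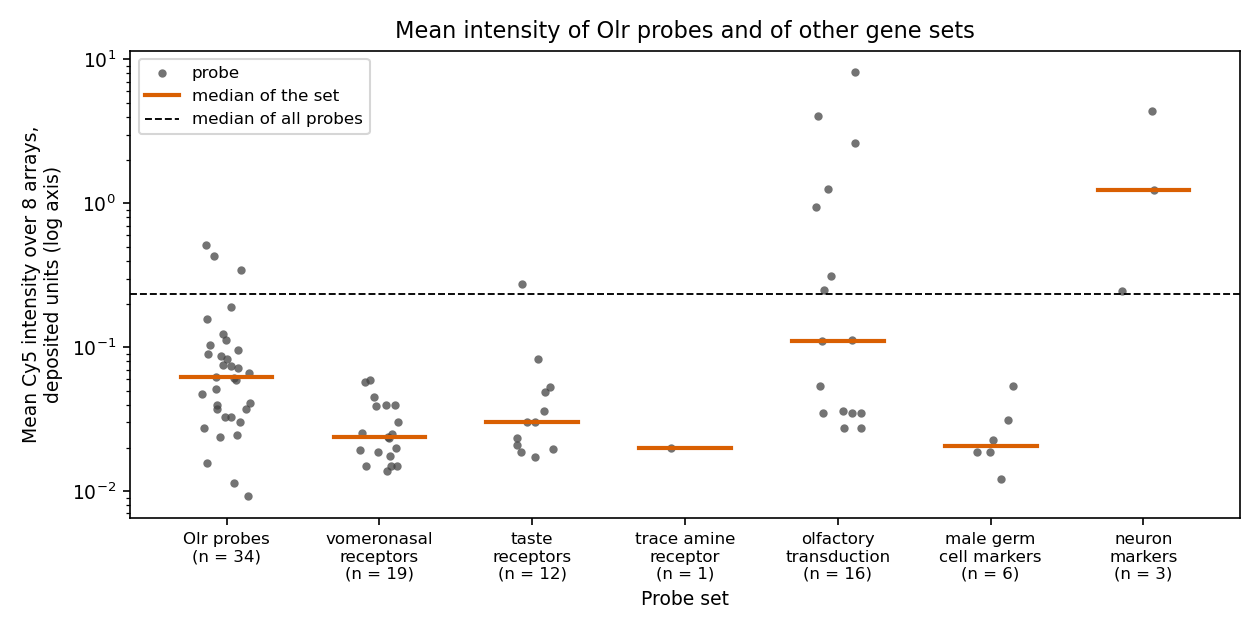
Mean Cy5 intensity over the 8 arrays (deposited units, log axis) of each probe in 7 sets, with 1 point per probe, an orange bar at the set's median and a dashed line at 0.235, the median of all probes. Olr, vomeronasal, taste and germ cell probes lie mostly below 0.1, while the 3 neuron markers lie above the dashed line.

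Markers of olfactory sensory neurons and of male germ cells were dim. Of 7 markers of olfactory sensory neurons 3 were measured, Omp, Cnga2 and Cnga4, and their mean intensities were 0.0275 to 0.035. Omp, the olfactory marker protein, had 0.0325 in tMCAO and 0.0375 in sham cortex, and was not called. Of the 3 probes 1 was called by the ratio, Cnga2, which was higher, and Cnga4 was not. Their summed intensity was 0.07 to 0.12 in tMCAO and 0.08 to 0.09 in sham cortex. Of 8 male germ cell markers 6 were measured, with mean intensities of 0.0121 to 0.0538, a summed intensity of 0.13 to 0.18 in tMCAO and 0.138 to 0.19 in sham cortex. None of the 6 was called in limma, and 1 had an unadjusted p under 0.05. No marker of either list was listed at 0.

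The machinery that olfactory receptors use in the nose was measured in part. Of 17 genes of olfactory transduction 12 had a probe, and of their 16 probes 3 were higher, 2 lower and 11 not called, with a median log2 difference of -0.0021 against -0.05 over all probes. Cnga2, a subunit of the cyclic nucleotide-gated channel, was higher by 1.48 ± 0.09 (SE, adjusted p 0.000526), at intensities of only 0.0325 in tMCAO and 0.0225 in sham cortex and with a rounding range of 0.21 to 2.97. With 0.05 added to both channels its difference was 0.47 (adjusted p 0.00215). Cy5 taken alone gave a smaller difference than the ratio, 0.76 (adjusted p 0.0355 in limma). The Cy5 intensity of Cnga2 was 0.02, 0.02, 0.05 and 0.04 in tMCAO, against 0.02, 0.03, 0.02 and 0.02 in sham cortex, with overlap. At the same Cy5 of 0.02, its log2 ratio was 1 in tMCAO replicates 1 and 2. In sham replicates 1, 3 and 4 it was -0.58, so the Cy3 pool signal differed between these arrays and made up part of the difference. Adcy3, the adenylyl cyclase of the cilia, had 2 probes: the dim one was higher by 0.86 (adjusted p 0.00772), and the bright one was not called at -0.25 (adjusted p 0.101). Slc12a2, the chloride importer, was higher by 0.60 (adjusted p 0.00853) on the brighter of its 2 probes.

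The phosphodiesterase Pde4a was lower by -1.04 ± 0.24 (SE, adjusted p 0.0147). Gnb1, a G protein beta subunit, was lower by -0.45 (adjusted p 0.0438) on its bright probe. Ric8b, an exchange factor for the olfactory G protein, was not called at 0.23 (adjusted p 0.105), but was called without tMCAO replicate 2 at 0.31 (adjusted p 0.0425). Gnb1 lost its call when any 1 animal other than tMCAO replicate 4 was left out, with differences of -0.48 to -0.34, and under quantile normalization, at -0.21 (adjusted p 0.247). Adcy3, Slc12a2, Pde4a, Gnb1, Ric8b and Arrb2 had a probe with a mean above 0.235, and Cnga2, Cnga4, Cngb1, Omp, Pde1c and Grk3 did not.

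Of 7 genes for chaperones that carry receptors to the cell surface, 4 were measured by 9 probes, of which 5 were lower, none higher and 4 not called, with a median log2 difference of -0.57; over all probes 15.1% were lower. Reep5 alone had 5 of the 9 probes. The 5 were 4 of the 5 probes of Reep5, from -0.97 to -0.49, and the probe of Reep1 at -0.71 (adjusted p 0.0496); both proteins shape the endoplasmic reticulum. Reep6 was not called on its brighter probe at -0.48 (adjusted p 0.104), nor was Rtp4, a receptor transporting protein induced by interferon, at 0.52 (adjusted p 0.0801). Without tMCAO replicate 4 Reep6 was called at -0.70, and without tMCAO replicate 2 Rtp4 was called at 0.67. Leaving out any 1 animal other than tMCAO replicate 4 ended the call of Reep1, with differences of -0.74 to -0.61, and that of the Reep5 probe with the largest difference, at -0.98 to -0.81. Under quantile normalization that Reep5 probe was at -0.60 (adjusted p 0.0383) and Reep1 at -0.42 (adjusted p 0.14).

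Of 12 genes known to control receptor gene choice in the nose, 8 were measured by 11 probes, of which 3 were higher, 1 lower and 7 not called, with a median of 0.14. The homeodomain factor Lhx2 was lower by -1.31 ± 0.27 (SE, adjusted p 0.00977), with mean intensities of 1.55 in tMCAO and 3.77 in sham cortex. Ebf1 was higher by 0.85 ± 0.24 (SE, adjusted p 0.0306), a call that ended when any 1 animal other than tMCAO replicate 4 was left out, with differences of 0.70 to 0.88. Atf5, a stress-response transcription factor, was higher by 0.75 (adjusted p 0.00913), and the lamin B receptor Lbr by 0.63 (adjusted p 0.013) on its bright probe. Under quantile normalization both calls ended, at 0.37 (adjusted p 0.142) for Atf5 and 0.36 (adjusted p 0.146) for Lbr. Cbx5, a heterochromatin protein, and Bptf, a chromatin remodelling factor, were not called at 0.14 (adjusted p 0.415) and 0.29 (adjusted p 0.106).

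The tissue itself changed around these probes. Of 8 probes for 5 markers of macrophages and microglia all 8 were higher, with a median of 0.90 and a summed intensity of 29.4 to 61.7 in tMCAO and 18.7 to 18.9 in sham cortex. Of 4 astrocyte probes 1 was higher (Gfap) and 2 lower. Of 22 red blood cell probes, 21 of the beta-globin gene Hbb and 1 of Alas2, an enzyme of haem synthesis, none was called in limma and 2 had an unadjusted p under 0.05. Their median log2 ratio was 1.32, 0.83, -0.12 and -0.21 on the 4 tMCAO arrays, so that replicates 1 and 2 stood apart, and -0.38 to 0.12 on the sham arrays. None of these was listed at 0, and their part in the differences of Olr59, Olr287 and Olr337 was not tested.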

How the data were processed

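Cy5 and Cy3 intensity values and a p-value per probe and array were deposited by the authors as 1 normalized table. Per the submitters' processing notes, the arrays were read with Agilent Feature Extraction 8.5.1.1. The sources used here do not give how the intensities were scaled or which error model gave the p-value. No detection call was used. The deposited series matrix holds log10 of Cy5 over Cy3 from the same intensities, and served as an alternative. Array number limits the precision, and replicates are separate animals per the labels.

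The log2 of Cy5 over Cy3 was taken for the 23376 probes with complete values; 233 were left out. Group means were estimated for every probe in R 4.3.3 by limma 3.58.1, using lmFit and eBayes with 2-sided tests, and p-values were adjusted over all probes by the Benjamini-Hochberg method. The fit was tested on simulated data. Rounding ranges shift every intensity by its rounding error (0.005 for values of at least 0.01) so as to make the difference lowest or highest. Correlations between same-numbered tMCAO and sham animals were 0.03, -0.04, 0.01 and -0.06. They gave no sign of pairing by number, but so few pairs cannot exclude it. With the replicate number as a block in limma, Olr287 and Olr337 were not called (adjusted p 0.0537 and 0.0781).

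Symbols were matched to RefSeq (GRCr8) by accession for 18 members and by symbol for 16. Named were members that were called, the 10 brightest, the 3 dimmest and, per list of related genes, up to 4 called and 2 others by signal; others named were chosen after their values were seen. Members, lists and alternatives were chosen with earlier results of these data known.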

Additional observations from a re-analysis of the deposited data

Results flagged for a closer look

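In groups of 4, a value was picked out when its gap to the nearest other value exceeded Dixon's critical value for a share of the group's range. Over 28 groups of 14 named members this occurred 6 times; chance alone picks about 1 group in 20, and ratios tied at 0 raise that. The log2 ratio of Olr59 in tMCAO replicate 4 was -0.3523, far from the other 3 tMCAO animals at -3.10 to -2.71, with Cy5 at 0.47 and Cy3 at 0.60. Sham replicate 3 had a log2 ratio of -0.1255 for Olr1398, against 0.11 to 0.14 in the other sham animals; its Cy5 of 0.11 and Cy3 of 0.12 were 1 rounding step apart.

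Of the remaining 4, 3 were also 1 rounding step between the channels, and that of Olr1496 lay below 0.01. They were 0.1069 for Olr826 in tMCAO replicate 3, with the others at 0, and 0.2224 for Olr1700 in tMCAO replicate 2, with the others at 0. They were also -0.415 for Olr1500 in sham replicate 3, with the others at 0, and -0.3971 for Olr1496 in tMCAO replicate 1, with the others at -0.05 to 0.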

How the results depend on the processing

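Over 21 alternatives Olr59 was called lower in 20, losing the call only at an adjusted p under 0.01, with differences of -3.16 to -2.02. Not all alternatives could move a member. Median centring changed nothing, since the median ratio of all probes was 0 on each array. The series matrix holds ratios of the same intensities, and averaging the probes of a symbol left each 1-probe member's difference as it was. Olr287 was called in 16 of 20 and Olr337 in 11 of 20; within rounding the highest difference of Olr337 was 0.0304, above 0. Olr1699 was called in 3 of 21 (quantile normalization, Cy5 alone and array weights). Members higher were 1 with the pool alone as control and 1 with array weights. Members lower were 1 at a mean Cy5 of at least 0.1 (8 members left), 6 with array weights, 0 at an adjusted p under 0.01 and 1 with the replicate block, which kept Olr59. All probes called were 3583 under quantile normalization, 11186 with the pool alone, 11199 with array weights and 2409 at an adjusted p under 0.01, against 6920. Leaving out 1 animal gave 2 to 4 members lower, 0 to 1 higher and 4255 to 10392 probes called; without tMCAO replicate 4 there were 10392. The median difference of the members was -0.14 under quantile normalization, -0.092 for Cy5 alone, -0.023 with the pool alone, -0.18 at a mean Cy5 of at least 0.1, -0.048 with 0.05 added to both channels, -0.060 with array weights, -0.10 without the lipoprotein receptor and -0.15 to -0.022 leaving out 1 animal. Members above a level of 0.1, 0.5 and 1 were 8, 1 and 0, against 3 above the median of all probes. The cause of these changes was not tested, beyond fewer probes or samples where the alternative removes them. Rounding and the unknown background limit all members below 0.1.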
